A study of Homo sapiens with 5 samples.

Results

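Binding sites of p53 and JMJD3 in irradiated fibroblasts were compared as 2 landscapes, that is, by where along the genome each protein was listed and how far its sites lay from those of the other. The members are all sites in the p53 list (3232) and the JMJD3 list (35133) of irradiated cells, chosen by antibody and exposure and not by any value, which is 38365 of the 43443 sites in the 4 lists of the series. The cells were BJ human foreskin fibroblasts immortalized with hTERT, the catalytic subunit of telomerase, and they received a 10 Gy dose of ionizing radiation (IR) and were harvested for ChIP 6 h later according to the labels. The untreated lists (361 p53 sites and 4717 JMJD3 sites), from the same line without IR, serve as background. The p53 antibody was DO-1, and the JMJD3 antibody was raised in rabbits against a fragment of JMJD3. There was 1 library for each antibody and exposure, all from 1 cell line, so no difference has a replicate check and no p-value is given.

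p53 is a transcription factor that is stabilized by DNA damage and binds, as a tetramer, to a short recognition sequence present at many promoters and distal enhancers. Its targets include genes for cell cycle arrest, DNA repair and apoptosis. JMJD3 (KDM6B) is a histone demethylase that removes methyl groups from lysine 27 of histone H3, a mark of Polycomb repression. It is an enzyme of chromatin and not a sequence-specific factor. The comparison asks how similar the genome distributions of both proteins were at distances from 1 kb to several Mb, beyond the sites where both were listed at the same place.

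For every site the lists hold its position alone, with no height and no read number. Sequencing depth is therefore unknown, and its part in the lengths of the lists was not tested and cannot be told apart from the antibodies with 1 library each. Positions are those of the hg18 assembly, counted from 1. No gene annotation of that assembly was used, so regions are named by position, and the cell type could not be checked against marker genes. Intervals are exact 95% binomial (Clopper-Pearson) intervals, or order-statistic intervals for medians. They cover counting error only, and since neighbouring sites are not independent they are too narrow as a guide to what a repeat would give.

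The median p53 site was wider than the median JMJD3 site, in lists that start at different widths. The median width was 288 bp for p53 (95% interval 283 to 295) and 187 bp for JMJD3 (185 to 188). For p53 the 10th and 90th percentiles of width were 200 bp and 492 bp, and the widest site measured 1554 bp. The same percentiles of JMJD3 were 127 bp and 375 bp, but its widest site reached 11349 bp. The JMJD3 list thus held both the narrowest and the widest sites after IR. Sites of 500 bp or more were 9.19% of the p53 list and 4.54% of the JMJD3 list, whereas sites of 1000 bp or more were 0.217% (7 sites) for p53 and 0.834% (293 sites) for JMJD3. The smallest width was 200 bp for p53 and 125 bp for JMJD3, and 56.0% of the JMJD3 sites lay under 200 bp. Both untreated lists started at 200 bp. This difference in the smallest width moves with the comparison of medians, and among sites of at least 200 bp the JMJD3 median was 276 bp, closer to that of p53, and the share of 500 bp or more was 10.3%, above that of p53. In untreated cells the shares of 500 bp or more were 12.7% for JMJD3 and 2.77% for p53. Together the p53 sites covered 1.05 Mb and the JMJD3 sites 8.30 Mb.

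The widest sites are given with the share of each list that met the other protein, 21.2% of p53 sites and 2.02% of JMJD3 sites. The 3 widest p53 sites, at chr6:36751759-36753312 (1554 bp), chr1:9164038-9165368 (1331 bp) and chr1:179370461-179371774 (1314 bp), all shared bases with JMJD3 after IR and all met a p53 site of untreated cells. Of all 3232 p53 sites, 343 met a p53 site of untreated cells. None of the 3 widest JMJD3 sites overlapped a p53 site, and 2.73% of the 293 JMJD3 sites of 1000 bp or more did (1.19 to 5.31%). The JMJD3 site at chr15:37660388-37671736 (11349 bp) lay 24.1 kb from the nearest p53 site, that at chr17:45617915-45624758 (6844 bp) lay 18.7 kb away, and that at chr11:64946721-64953062 (6342 bp) lay 1.12 kb away. All 3 overlapped JMJD3 sites of untreated cells, between 1 and 8 each. Of all 35133 JMJD3 sites, 4178 overlapped a JMJD3 site of untreated cells.

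JMJD3 sites occurred in dense groups, and p53 sites mostly stood alone. The gap from a p53 site to the next p53 site had a median of 193 kb (95% interval 183 to 204), and 247 of the 3232 sites (7.64%, 6.75 to 8.61%) had another within 10 kb. For JMJD3 the median gap was 3.81 kb (3.63 to 3.98), and 22173 sites (63.1%, 62.6 to 63.6%) had another within 10 kb. A list 10.9 times as long has closer neighbours by number alone. The widest 3232 JMJD3 sites, as many as there are p53 sites, still had a median gap of 11.7 kb, and 48.5% of them had another of these sites within 10 kb. This subset was chosen by width, so it differs from the whole list in more than its length. The untreated lists showed the same contrast, with a median gap of 8.51 kb over 4717 JMJD3 sites and of 2293 kb over 361 p53 sites.

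**Figure D1:**
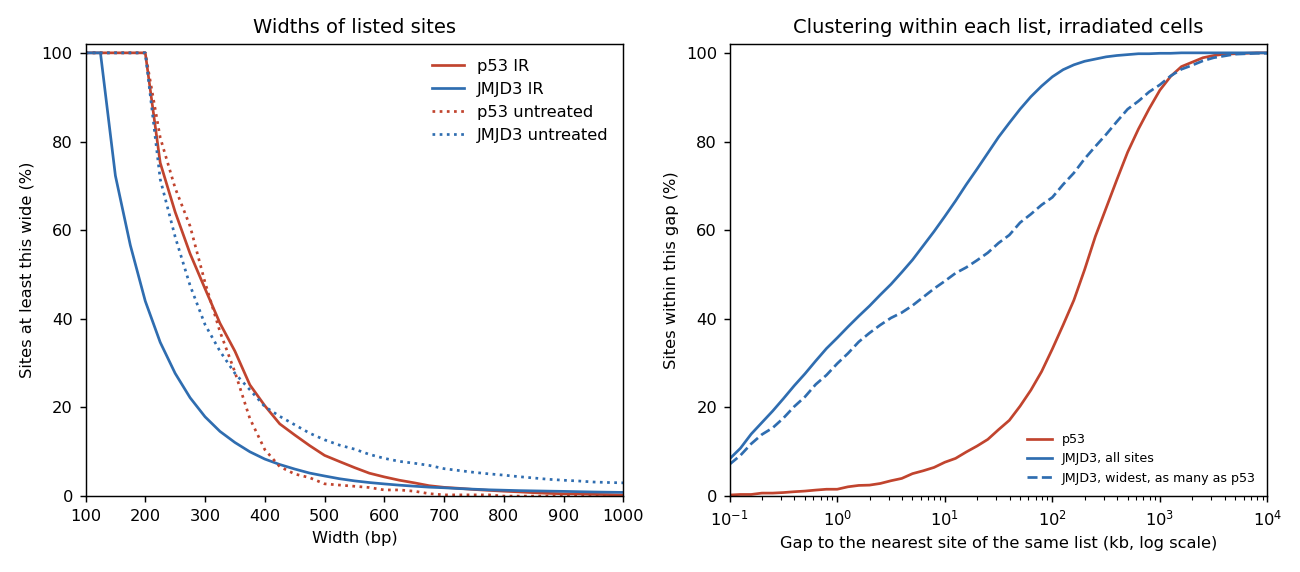
Left, the share of sites (%) at least as wide as the value on the x axis (bp) for the 4 lists. Right, the share of sites (%) with another site of the same list within the gap on the x axis (kb, log scale) in irradiated cells, where 63.1% of JMJD3 sites but 7.64% of p53 sites have one within 10 kb and the dashed curve shows the widest 3232 JMJD3 sites.

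When sites within 10 kb of each other were joined into runs, the 3232 p53 sites formed 3105 runs, of which 115 held 2 sites and 5 held 3 or more. The 35133 JMJD3 sites formed 18961 runs. Of these, 1049 held 5 or more sites and together took 28.3% of the list, and 280 held 10 or more. The longest p53 run by number lay at chr6:36742694-36758610 (15.9 kb) with 5 p53 sites, 3 p53 sites of untreated cells and 6 JMJD3 sites of irradiated cells. The next longest among runs of 3, at chr4:78473077-78484552 (11.5 kb) and chr17:35947816-35957569 (9.75 kb), held no JMJD3 site. The JMJD3 runs were of another order. That at chr15:78858583-79047160 held 160 JMJD3 sites over 189 kb, that at chr8:70542905-70743116 held 115 sites over 200 kb, and that at chr22:44277072-44387663 held 74 sites over 111 kb. No p53 site lay in any of these 3 JMJD3 runs. Longer JMJD3 runs nevertheless held p53 more often, though they also covered more sequence. At least 1 p53 site lay in 2.45% of the 12960 single JMJD3 sites (2.19 to 2.73%), in 10.7% of the 769 runs of 5 to 9 sites (8.57 to 13.1%) and in 27.1% of the 70 runs of 20 or more (17.2 to 39.1%), with median lengths of 0.176, 11.6 and 42.2 kb. Per 100 JMJD3 sites these classes held 2.45, 1.86 and 1.04 p53 sites, and per Mb of run 122, 9.25 and 7.3.

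Over whole chromosomes the densities of both proteins rose and fell together, with a wider range for JMJD3. Density is given as sites per Mb of the stretch between the first and last site of a chromosome in any of the 4 lists, 2937 Mb in all. Among the 22 autosomes, p53 ranged from 0.811 sites per Mb on chromosome 4 to 1.70 on chromosome 17, a 2.09-fold range. JMJD3 ranged from 7.62 sites per Mb on chromosome 13 to 27.4 on chromosome 19, a 3.59-fold range, and in untreated cells it ranged 7.82-fold. The X chromosome lay below every autosome for both proteins, with 0.325 p53 and 3.92 JMJD3 sites per Mb. Across the 22 autosomes Pearson's r of both densities was 0.882 and Spearman's rho 0.854. These values are descriptions. Base composition, gene density and mappability vary between chromosomes and can bear on both lists, which also share the IgG control. Their part was not tested.

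The JMJD3 list held 10.9 sites for each p53 site over the genome (95% interval 10.5 to 11.3). By chromosome the ratio was highest on chromosome 19 (16.5, 13.5 to 20.3), chromosome 22 (15.4, 11.5 to 21) and chromosome 15 (13.2, 10.8 to 16.4). It was lowest on chromosome Y, where only 4 p53 and 22 JMJD3 sites were listed (5.50, 1.87 to 22), on chromosome 13 (8.94, 7.10 to 11.4) and on chromosome 20 (8.96, 7.2 to 11.2). For 3 of the 24 chromosomes (12.5%) the interval left out the ratio over all other chromosomes. JMJD3 was in excess relative to p53 on chromosomes 19 and 22 and short of it on chromosome 9 (9.13, 7.76 to 10.8). When JMJD3 sites under 200 bp were dropped, the genome ratio was 4.79 and 6 chromosomes differed, with more JMJD3 per p53 site on chromosomes 15, 19 and 22 and less on chromosomes 9, 13 and 20. Chromosome 19 alone was left when sites were merged within 1 kb, when a 99% interval was used, or when each run within 10 kb was counted as 1 site. When runs were counted, the ratio was 7.71 on chromosome 19, 6.45 on chromosome 22 and 6.26 on chromosome 15 against 6.11 over the genome. With overlapping sites left out, chromosome 22 came first (24.5), ahead of chromosome 19 (21.8) and chromosome 15 (16.6), against 13.5 over the genome. The JMJD3 runs of 160 and 74 sites named above lie on chromosomes 15 and 22.

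**Figure D2:**
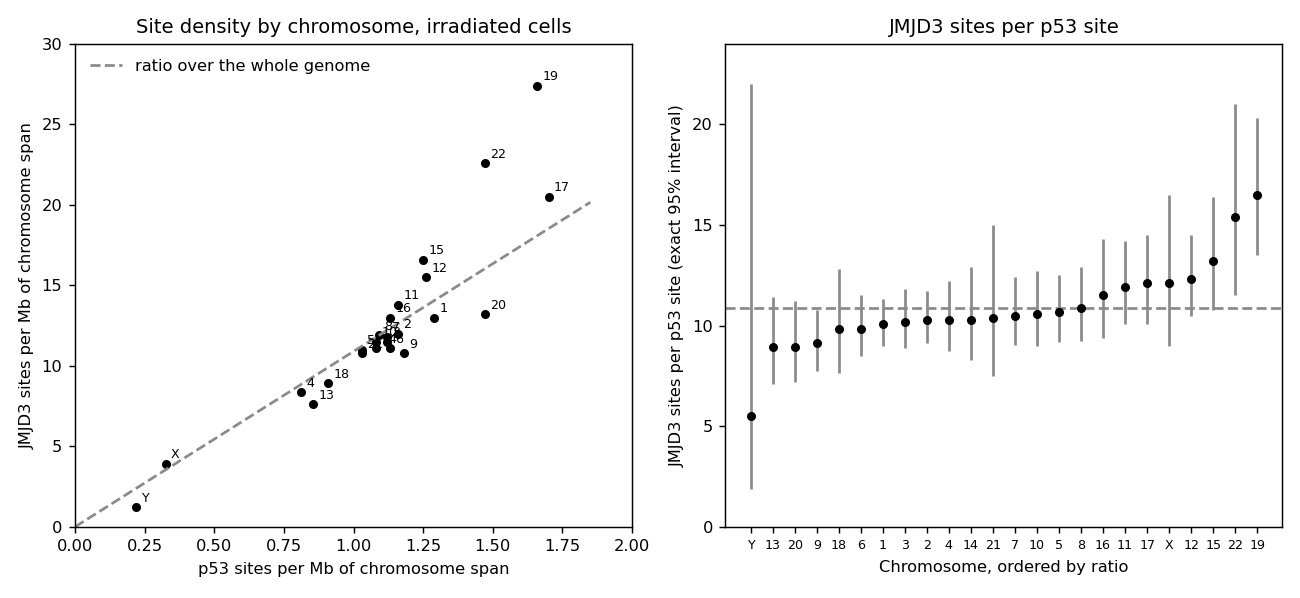
Left, JMJD3 against p53 sites per Mb of chromosome span in irradiated cells, 1 point per chromosome, with the ratio over the whole genome as a dashed line; chromosomes 19 and 22 lie above it. Right, JMJD3 sites per p53 site on each chromosome with exact 95% intervals, from 5.50 on chromosome Y to 16.5 on chromosome 19.

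The ends of the long arms differed between the lists. The last 5 Mb of each chromosome span made up 4.09% of the length and held 2479 JMJD3 sites (7.06%, 6.79 to 7.33%), a density 1.73 times the mean. They held 151 p53 sites (4.67%, 3.97 to 5.46%), 1.14 times the mean, with an interval that included the share of the length. In untreated cells the JMJD3 share was 8.78% (7.98 to 9.62%). With each run counted as 1 site the shares were 5.57% for JMJD3 and 4.51% for p53.

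The chromosome spans were next cut into 2959 bins of 1 Mb. A bin held a mean of 1.09 p53 sites (SD 1.34, highest 10) and 11.9 JMJD3 sites (SD 14.5, highest 167). No p53 site was listed in 1327 bins (44.8%) and no JMJD3 site in 565 (19.1%). JMJD3 was listed in most bins, which bears on its share among bins with p53. It was in 2394 of all 2959 bins (80.9%), and 2442 bins held a site of any list. Of the 1632 bins with p53, 1590 (97.4%) also held JMJD3, and 47 p53 sites (1.45%) lay in bins without JMJD3. The share of 97.4% was above that of all bins but not above that of bins with any site. No tie between the proteins is therefore read from it. In the other direction, 1590 of 2394 bins with JMJD3 (66.4%) held p53, and 7499 JMJD3 sites (21.3%) lay in bins without it. Neither protein was listed in 523 bins (17.7%).

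Numbers of p53 and JMJD3 sites per 1 Mb bin had a Pearson r of 0.458 and a Spearman rho of 0.579 over the 2959 bins. Between the JMJD3 lists of irradiated and untreated cells the r was 0.814, and between p53 of irradiated cells and JMJD3 of untreated cells it was 0.272. Within single chromosomes, r between p53 and JMJD3 of irradiated cells lay from 0.246 (chromosome 13) to 0.634 (chromosome 9) among autosomes, and was 0.0966 on the X chromosome. Leaving out the sites where both proteins overlapped gave an r of 0.347. The value depended on the size of the bin, from 0.193 at 0.1 Mb to 0.676 at 5 Mb and 0.775 at 10 Mb. Between p53 in 1 bin and JMJD3 in the bin next to it, r was 0.262. It was 0.0859 for bins 5 Mb apart and 0.0230 for bins 20 Mb apart. Base composition and mappability vary between bins and can bear on both lists, which also share the IgG control, and neighbouring bins are not independent.

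Bins with more JMJD3 sites held more p53 sites on average, and the reverse. Bins without JMJD3 held 0.0832 ± 0.0131 p53 sites (mean ± SE over 565 bins). Bins with 1 to 5 JMJD3 sites held 0.634 ± 0.0325 p53 sites (691 bins), bins with 11 to 20 held 1.54 ± 0.0496 (633 bins), and bins with 41 to 80 held 2.44 ± 0.159 (131 bins). In the 9 bins with 81 JMJD3 sites or more the mean was 2 ± 0.441 p53 sites. From the class of 1 to 5 to that of 41 to 80, mean JMJD3 went from 2.77 to 53.9 sites per bin. The ratio of both within such classes depends on which protein defines them, so no proportion is read from it. Read the other way, bins with no p53 site held a mean of 5.65 JMJD3 sites (SD 9.62), bins with 1 p53 site held 12.5 (SD 12.8), and the 69 bins with 5 or more p53 sites held 30.1 (SD 16.3). The SDs show that single bins overlapped widely between these classes.

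**Figure D3:**
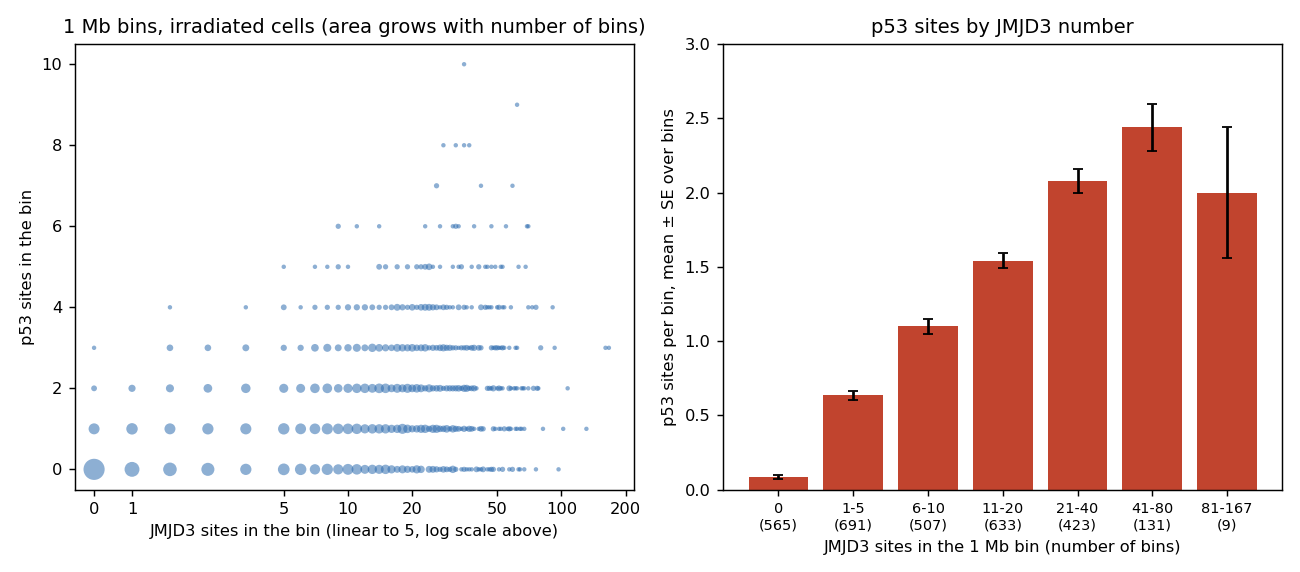
Left, p53 against JMJD3 sites in each of the 2959 bins of 1 Mb in irradiated cells, with JMJD3 on an axis that is linear to 5 and logarithmic above, and larger points for more bins. Right, mean p53 sites per bin (± SE over bins) for classes of JMJD3 number, which rises from 0.0832 in bins without JMJD3 to 2.44 in bins with 41 to 80 and is 2 in the 9 bins above that. Of the 565 bins without JMJD3, 517 hold no site in any list.

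The bins with the most sites of each protein were as follows. The most p53 sites lay at chr19:4000001-5000000, with 10 p53 and 35 JMJD3 sites, a JMJD3 number that ranked 189 among all bins. Next were chr17:35000001-36000000 with 9 p53 and 62 JMJD3 sites and chr5:149000001-150000000 with 8 p53 and 37 JMJD3 sites, and 6 bins in all held 8 or more p53 sites. In untreated cells none of these 3 bins held a p53 site, which is the usual case, as that list has 361 sites for 2959 bins. The most JMJD3 sites lay at chr22:44000001-45000000 with 167 JMJD3 and 3 p53 sites, at chr15:78000001-79000000 with 161 and 3, and at chr8:70000001-71000000 with 131 and 1. Each of these had 26 to 34 JMJD3 sites in untreated cells. Some JMJD3-dense bins had no p53 site at all, with 97 JMJD3 sites at chr19:63000001-64000000, 76 at chr11:121000001-122000000 and 67 at chrX:45000001-46000000.

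By its variance, JMJD3 was spread less evenly over bins than p53. The variance above the mean, divided by the squared mean, is 0 for sites placed evenly at random whatever their number. It was 1.41 for JMJD3 and 0.582 for p53 in 1 Mb bins. Counting each run within 10 kb as 1 site brought these values to 0.606 and 0.485, which left a much smaller contrast at this scale. For the widest 3232 JMJD3 sites the value was 4.21. By another measure the lists were alike, with 50% of sites in the fullest 15.3% of bins for p53 and 15.6% for JMJD3. That share also depends on the number of sites in a list.

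Distances from p53 to JMJD3 were read against the length of the JMJD3 list, which holds 1 site per 83.6 kb on average, so a JMJD3 site within 100 kb of most p53 sites follows from number alone. Nearest gaps fall below the mean spacing even for sites placed evenly at random, so a median under 83.6 kb shows no nearness. The gap between edges, taken as 0 for the 686 p53 sites (21.2%) that shared at least 1 bp with a JMJD3 site, had a median of 15.6 kb (95% interval 14.1 to 17.4). When JMJD3 sites under 200 bp were dropped, 200 bp being the smallest width in the p53 list, the median was 43.5 kb, and the share of p53 sites within 10 kb of JMJD3 went from 43.6% to 26.5%. A further 160 p53 sites (4.95%) had a JMJD3 site within 1 kb, 562 (17.4%) at 1 to 10 kb, 1367 (42.3%) at 10 to 100 kb and 440 (13.6%) at 100 kb to 1 Mb. The remaining 17 p53 sites (0.526%) were over 1 Mb from any JMJD3 site. Among the 2546 p53 sites that overlapped no JMJD3 site, the median gap was 26.8 kb (25.1 to 28.7), and 25% had a gap of 8.44 kb or less. Of these 2546, 118 (4.63%) had a JMJD3 site within 10 kb on both sides, 604 (23.7%) on 1 side and 1824 (71.6%) on neither. Within 100 kb the numbers were 1184 (46.5%), 905 (35.5%) and 457 (17.9%). There was no preferred side, with 427 p53 sites having JMJD3 within 10 kb at lower coordinates and 413 at higher ones.

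From a JMJD3 site, the nearest p53 site lay farther away than in the reverse direction, in a list with 1 p53 site per 909 kb on average. Nearest gaps fall below this spacing too for sites placed evenly at random. The median gap to the nearest p53 site was 165 kb (95% interval 162 to 168), 10121 JMJD3 sites (28.8%) were 10 to 100 kb away, 19577 (55.7%) 100 kb to 1 Mb away, and 2685 (7.64%) over 1 Mb away. From a p53 site to the next p53 site the median was 193 kb. The lists differ in length, which bears on both directions. Against the 4717 JMJD3 sites of untreated cells, a list that also differs in exposure and in its smallest width, the p53 sites of irradiated cells had a median gap of 219 kb (207 to 235) in place of 15.6 kb. With the widest 3232 JMJD3 sites the order turned, with a median of 338 kb from p53 to JMJD3 (310 to 364, without the 4 p53 sites of chromosome Y, where none of these JMJD3 sites lay) and 129 kb from JMJD3 to p53 (122 to 139).

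**Figure D4:**
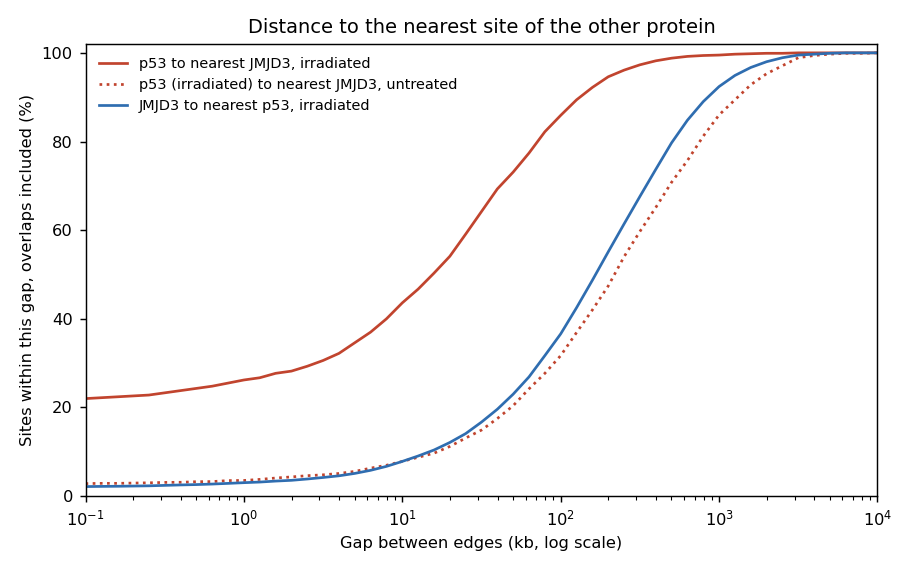
Share of sites (%) with a site of the other protein within the gap on the x axis (kb between edges, log scale, overlaps included). Within 10 kb lie 43.6% of p53 sites of irradiated cells for JMJD3 after IR, 7.83% for JMJD3 of untreated cells, and 7.83% of JMJD3 sites after IR for p53.

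The distance from p53 to JMJD3 followed the JMJD3 number of the surrounding 1 Mb, which in part it must, since more JMJD3 sites leave shorter gaps. Of the 438 p53 sites in bins with 1 to 5 JMJD3 sites, 9.13% (6.6 to 12.2%) overlapped JMJD3, and of the 337 in bins with 41 or more, 34.7% (29.6 to 40.1%) did. Among sites with no overlap the median gaps in these classes were 73.1 kb and 10.6 kb. The median p53 width lay between 276 bp and 296 bp in the 5 classes of JMJD3 number. By chromosome, the p53 sites of chromosome 22 had the shortest median gap to JMJD3 (2.98 kb, 0 to 12.5), followed by those of chromosome 19 (5.62 kb, 1.83 to 8.81). The gap was 35.2 kb (19.8 to 64.2) on chromosome 13 and 72.2 kb (33.1 to 159) on the X chromosome.

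Among p53 sites, the widest group overlapped JMJD3 most often, and distance without overlap varied little with width. With the list cut into 4 groups of nearly equal size by width, 27.8% of sites in the widest group (24.7 to 31.0%) overlapped JMJD3, against 17.0% (14.5 to 19.8%) in the next group and 20.5% (17.8 to 23.5%) in the narrowest. In the second narrowest group the share was 19.6% (16.9 to 22.5%), so overlap did not rise step by step with width. Where there was no overlap, the median gap lay between 24.7 kb and 30.1 kb in all 4 groups, with intervals that overlapped. The 343 p53 sites that were also listed in untreated cells overlapped JMJD3 more often (32.7%, 27.7 to 37.9%) than the 2889 listed only after IR (19.9%, 18.4 to 21.4%), but without an overlap their median gaps were 29.1 kb (23.8 to 36.1) and 26.6 kb (24.7 to 28.6). Grouped p53 sites lay nearer to JMJD3. The 247 p53 sites with another p53 site within 10 kb had JMJD3 within 10 kb in 70.9% of cases (64.8 to 76.4%), those with the next p53 site 10 to 100 kb away in 48.4% (45.0 to 51.9%), and those farther from other p53 sites in 38.6% (36.5 to 40.7%).

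Among JMJD3 sites, the wider ones and those in long runs lay nearer to p53. The median gap to p53 was 173 kb (168 to 179) for JMJD3 sites under 200 bp, 160 kb (155 to 164) from 200 to under 500 bp, 125 kb (115 to 142) from 500 to under 1000 bp and 108 kb (93.6 to 126) from 1000 bp. For single JMJD3 sites, with no other within 10 kb, it was 204 kb (197 to 210), and for sites in runs of 10 or more 114 kb (108 to 120). Direct overlap went the other way with run length. A p53 site overlapped 2.45% of single JMJD3 sites (2.19 to 2.73%), 2.20% of those in runs of 2 to 4 (1.95 to 2.48%), 1.51% in runs of 5 to 9 (1.19 to 1.9%) and 0.969% in runs of 10 or more (0.717 to 1.28%). Sites of 1 run share their neighbourhood, so these intervals are too narrow. JMJD3 sites that were also listed in untreated cells (4178) and those listed only after IR (30955) had median gaps to p53 of 171 kb (162 to 181) and 164 kb (161 to 167).

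The density of JMJD3 sites at increasing distance from the centres of p53 sites was divided by its mean over the genome, 12.0 sites per Mb. The profile had a steep peak at the p53 site and fell slowly over the larger distances. JMJD3 was 21 times the mean within 0.5 kb (811 pairs of sites), 4.79 times at 0.5 to 1 kb, 2.72 times at 1 to 5 kb, 2.28 times at 10 to 25 kb, 1.72 times at 100 to 250 kb, 1.42 times at 0.5 to 1 Mb and 1.17 times at 2 to 5 Mb. The mean counts the 517 bins in which no list had a site. With these bins left out of the shells and of the mean, the values were 17.3 within 0.5 kb, 2.24 at 1 to 5 kb, 1.88 at 10 to 25 kb, 1.43 at 100 to 250 kb and 1.09 at 2 to 5 Mb, so the values beyond 1 Mb were close to those of the list at large. For the 2546 p53 sites that overlapped no JMJD3 site, the values with all bins were 1.78 at 1 to 5 kb, 1.88 at 10 to 25 kb and 1.40 at 0.5 to 1 Mb. The shoulder was thus present around p53 sites without JMJD3 too. The reverse profile, p53 around JMJD3, is built from the same pairs and holds the same values up to the treatment of chromosome ends.

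The JMJD3 list of untreated cells was also set around the p53 sites of irradiated cells. Divided by its own mean of 1.61 sites per Mb, JMJD3 of untreated cells was 19.3 times the mean within 0.5 kb (100 pairs), 3.47 times at 0.5 to 1 kb (18 pairs, against 4.79 times after IR), 2.58 times at 1 to 5 kb, 2.41 times at 5 to 10 kb (against 2.79 times after IR), 2.42 times at 10 to 25 kb, 1.72 times at 100 to 250 kb and 1.44 times at 0.5 to 1 Mb. In sites per Mb the profiles were far apart, 251 after IR and 31.0 before it within 0.5 kb, and 27.3 and 3.89 at 10 to 25 kb. Both JMJD3 lists share sites, as 4178 JMJD3 sites of irradiated cells overlapped one of untreated cells, so the profiles are not independent, and their difference was not tested.

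Each protein also clustered around itself. JMJD3 around JMJD3 was 13.3 times the mean at 1 to 5 kb, 5.72 times at 10 to 25 kb and 2.26 times at 100 to 250 kb. p53 around p53 was 4.08 times the mean at 1 to 5 kb, 1.93 times at 10 to 25 kb and 1.63 times at 100 to 250 kb. JMJD3 around p53 thus lay below JMJD3 around itself from 0.5 kb outward, and at 100 kb and beyond it was close to p53 around itself. From 0.5 Mb outward no profile was above 1.51.

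**Figure D5:**
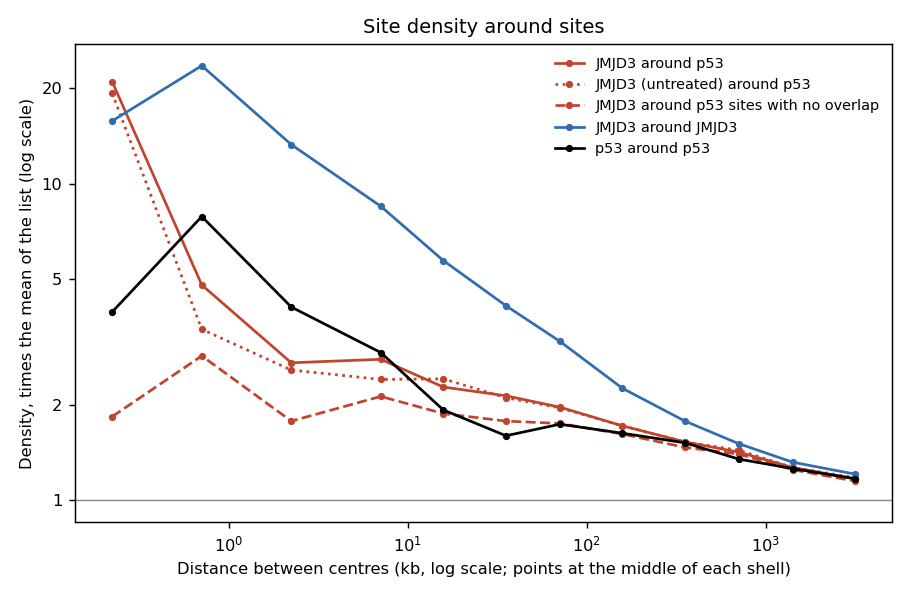
Density of sites, as a multiple of the list's mean over the genome (log scale), in shells of distance between centres (kb, log scale) around sites of irradiated cells. JMJD3 around p53 falls from 21 within 0.5 kb to 2.72 at 1 to 5 kb and 1.17 at 2 to 5 Mb, the JMJD3 list of untreated cells (dotted) starts at 19.3, and JMJD3 around itself (blue) is higher from 0.5 kb outward.

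A few sites lay several Mb from the other protein. The most distant p53 site, at chrX:83876616-83877119, was 3532 kb from the nearest JMJD3 site, and it was also listed for p53 in untreated cells. The next were chr5:27507867-27508184, at 2683 kb, and chr13:87450707-87450919, at 2388 kb, both listed only after IR. Each of these was the only p53 site of its 1 Mb bin. The JMJD3 sites farthest from p53 were neighbours of each other near the start of the listed part of chromosome 15, at chr15:20455869-20456050, chr15:20459915-20460299 and chr15:20481885-20482009, between 7289 kb and 7314 kb from the nearest p53 site, in a bin with 11 JMJD3 sites.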

How the data were processed

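ChIP-seq was done with antibodies against p53 and JMJD3 in irradiated and untreated BJ cells, 1 library each. According to the paper's methods and the submitters' processing notes, the authors aligned tags to hg18 with Bowtie 0.12.7, keeping unique alignments, and ran MACS version 2 on each library with an IgG library as control. The only IgG library in the labels is a rabbit IgG of untreated cells, and it was not analysed here. Thresholds are not given in the sources used here. The deposited lists hold positions in bp and no score, fold or p-value. The labels give 6 h from IR to harvest and the paper's text 5 h.

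Gap lengths came from Python 3.11.15 (numpy 2.4.6) and gave the same distance as bedtools 2.31.1 for all 3232 and 35133 sites. Intervals came from scipy 1.17.1, figures from matplotlib 3.10.9. The measures were tested on simulated data. Sites enter bins and distance shells by their centre. Alternatives were a minimum width of 200 bp, the wider 50% of a list, equal numbers of sites, autosomes, merging within 1 kb, other bin sizes, and leaving out overlapping sites. Counting runs as 1 site, leaving out end bins, leaving out empty bins for the shells, and all alternatives for the last 5 Mb were added after the data were seen. Named are the 3 chromosomes with the most and with the fewest JMJD3 sites per p53 site, the 3 bins with the most p53, the most JMJD3 and the most JMJD3 without p53, the 3 longest runs by number of sites, the 3 widest sites and the 3 sites farthest from the other protein. Other chromosomes, those at the ends of a range and chromosome 9, were named after their values were seen. Members, measures and rules were chosen with earlier results of these data known.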

Additional observations from a re-analysis of the deposited data

How the results depend on the processing

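Of 107 comparisons of a main value with an alternative, 69 moved by more than the counting interval (correlations by 0.1 or more, counts and unevenness by over 1.5 times). Some alternatives change the quantity itself, such as the distance for a neighbour or the size of a bin, so their moves say little about processing. For the ratios of single chromosomes, 18 of 24 comparisons moved. With JMJD3 sites of at least 200 bp there were 4.79 JMJD3 sites per p53 site, 6 chromosomes with a differing ratio (more JMJD3 on 15, 19 and 22, fewer on 9, 13 and 20), 52.6% of JMJD3 sites with another within 10 kb, a JMJD3 median width of 276 bp, and 7.60% of JMJD3 sites in the last 5 Mb. The median gaps were then 43.5 kb from p53 and 156 kb from JMJD3, the shares within 10 kb were 26.5% and 8.46%, and the density was 2.48 times the mean at 10 to 25 kb and 1.56 times at 250 to 500 kb (main values 2.28 and 1.53). Fewer JMJD3 sites enter by construction. Merging within 1 kb gave 8.37 JMJD3 sites per p53 site, 1 differing chromosome, 6.21% of p53 and 46.3% of JMJD3 sites with another within 10 kb, a JMJD3 unevenness of 0.917, a JMJD3 median width of 197 bp, 6.18% of JMJD3 sites in the last 5 Mb, a median gap of 175 kb from JMJD3 to p53, and densities of 2.13 and 1.51. A 99% interval also left 1 chromosome.

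Without overlapping sites there were 13.5 JMJD3 sites per p53 site, r was 0.347, the median gaps were 26.8 kb and 171 kb, the shares within 10 kb 28.4% and 5.93%, and the densities 1.88 and 1.47. Runs counted as 1 site gave 6.11 JMJD3 sites per p53 site, 1 differing chromosome, a JMJD3 unevenness of 0.606 and 5.57% of JMJD3 sites in the last 5 Mb. The widest 3232 JMJD3 sites gave 48.5% with another within 10 kb, an unevenness of 4.21, and from p53 a median gap of 338 kb and 8.33% within 10 kb. With the wider 50% of a list, 4.93% of p53 and 53.9% of JMJD3 sites had another within 10 kb, and from JMJD3 the median gap was 157 kb and 8.23% lay within 10 kb of p53. Autosomes gave a median gap of 162 kb from JMJD3 and a density of 1.49 at 250 to 500 kb. With 1 p53 site from each run within 100 kb the densities were 2.08 and 1.5, and relative to the same chromosome 2.13 and 1.43.

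The r over bins was 0.193, 0.278, 0.676 and 0.775 at 0.1, 0.25, 5 and 10 Mb, Spearman's rho 0.579, and r of log2(sites + 1) 0.580. Leaving out the 517 bins that are empty in all lists gave an r of 0.369, and leaving out the shorter first and last bin of each chromosome gave 0.467. Unevenness was 1.29 and 0.350 for p53 and 4.74 and 0.593 for JMJD3 at 0.1 and 5 Mb, and 0.306 for p53 without the empty bins. Without them the densities near p53 were 1.88 and 1.28. The shares with another site within 1, 5, 50 and 100 kb were 1.55%, 5.01%, 20.2% and 33.2% for p53 and 35.7%, 53.3%, 87.3% and 94.6% for JMJD3. In no alternative did the density near p53 fall below the mean, did r fall below 0, or did p53 sites have a larger share with another within 10 kb than JMJD3 sites. No paired analysis was possible because each antibody and exposure has 1 library. The unknown depth limits every comparison that rests on the number of sites.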
